A study of Homo sapiens with 42 samples.

Results

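The carbonic anhydrase genes were followed through RNA-seq of 786-O cells in 2 batches. The 10 genes CA2, CA3, CA4, CA5B, CA8, CA9, CA11, CA12, CA13 and CA14 were taken by symbol from the 60609 genes counted per library. The list was chosen with earlier results of these data known. 786-O is a clear cell renal cell carcinoma line that lacks VHL, so that its own HIF-2α is stable, and that makes no functional HIF-1α; every group below shares this background. Batch 1 had 27 libraries and batch 2 had 15, with 3 in each group. Groups of batch 1 were unedited WT cells, a HIF-1β KIN clone and a HIF-2α KIN clone with the HaloTag knocked in at both alleles of the endogenous gene, and 6 lines of WT cells with a stably integrated, Halo-tagged transgene behind the L30 promoter. These transgenes were HIF-1α, HIF-2α, HIF-1α R30E and HIF-2α R27E, which carry a substitution against DNA binding, and HIF-1αDM and HIF-2αDM, which carry substitutions against dimerization with HIF-1β. Batch 2 had WT cells and L30-driven lines with HIF-1α, HIF-2α and a pair of swapped proteins. HIF-2α/1α joins the structured N-terminus of HIF-2α to the intrinsically disordered region (IDR) of HIF-1α, and in HIF-1α/2α the HIF-1α structured part carries the HIF-2α IDR. Each KIN line is a single clone, the transgenic lines are selected populations that still express their own HIF-2α, and transgene expression is constant rather than induced by low oxygen. The genotype given with the HIF-2αDM libraries names HIF-1α; they were taken as HIF-2αDM by their titles.

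Carbonic anhydrases speed the reversible hydration of carbon dioxide to bicarbonate and a proton. CA9 and CA12 are single-pass membrane proteins whose active site faces the outside of the cell, and CA9 is widely used as a marker of hypoxia and of clear cell renal carcinoma. CA14 also spans the membrane and CA4 is held on it by a lipid anchor. CA2, CA3 and CA13 are cytosolic, CA5B is mitochondrial, and CA8 and CA11 are related proteins without the catalytic activity. HIF dimers bind DNA at a short core motif, ACGTG or GCGTG, on either strand.

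The sequence upstream of CA9 and CA12 is shown because these are the genes on which the lines differed most, and in different ways. Promoter sequences from RefSeq (GRCh38.p14) matched 4 of the 10 genes. Both sequences run 5′ to 3′ on the strand of the gene and end at the base before its RefSeq start, and capitals mark the core motif, which lies on the other strand in both. CA9 is on the plus strand, with the sequence at chr9:35673678-35673927, and CA12 on the minus strand, at chr15:63381847-63382096.
CA9: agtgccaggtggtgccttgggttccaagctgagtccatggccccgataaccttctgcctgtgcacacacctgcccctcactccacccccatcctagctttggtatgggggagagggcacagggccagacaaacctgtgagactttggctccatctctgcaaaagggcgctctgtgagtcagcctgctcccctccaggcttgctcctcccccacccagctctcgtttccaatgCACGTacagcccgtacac
CA12: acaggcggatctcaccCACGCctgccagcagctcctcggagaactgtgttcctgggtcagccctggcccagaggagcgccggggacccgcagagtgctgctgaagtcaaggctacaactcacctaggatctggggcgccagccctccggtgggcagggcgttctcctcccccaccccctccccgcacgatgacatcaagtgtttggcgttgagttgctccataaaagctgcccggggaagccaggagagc
In these 250 bases CA9 had 1 ACGTG, 18 to 14 bases before the start, and CA12 had 1 GCGTG, 234 to 230 bases before it. CA5B had 6 GCGTG and CA14 had neither motif. Of 35116 promoter windows of the same length, 18.5% held ACGTG, 32.2% held GCGTG and 43.2% held either, so a match is common and is a description only.

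Depth was 42377599 to 101186554 counted reads per library in batch 1 and 76366799 to 109642159 in batch 2. A count of 3, taken as the smallest detectable value, was 0.0296 to 0.0708 CPM (counts scaled to library size) in batch 1 and 0.0274 to 0.0393 in batch 2, for counting error only. The renal markers PAX8, PAX2, CDH6, KRT8, KRT18, VIM and NNMT had means of 1766 to 129300 normalized counts (counts scaled to a common library size within a batch) in WT cells of batch 1, and 1328 to 196200 in batch 2. Leukocyte and endothelial markers had means of at most 3.328 there. Of the fibroblast markers DCN was at 0, while LUM had 72.26 and 222.3 and COL1A1 had 778.3 and 554.1 in WT cells of batch 1 and batch 2. LUM was called lower than in WT cells with HIF-2α in batch 1 (2.756) and in all 4 lines of batch 2 (5.202 to 54.14), and COL1A1 was called higher in 4 line comparisons; their part in the results below was not tested. HIF1A, on which reads of a HIF-1α transgene also count, had 242.1 ± 13.5 (SD, n = 3) normalized counts in WT cells and means of 2249 to 3038 in the 3 lines of batch 1 with a HIF-1α form, and 293.1 ± 28.1 against 9625 to 13160 in the batch 2 lines with any HIF-1α part. EPAS1, the HIF-2α gene, had 44690 to 56680 in the 3 lines with a HIF-2α form against 14500 ± 2020 in batch 1 WT cells, and 42540 ± 320 with HIF-2α against 12620 ± 820 in batch 2. HIF1A was also above WT cells with HIF-2α, at 909.6 ± 280 and 935.5 ± 144. EPAS1 was above WT cells with HIF-1α in batch 1, at 22950 ± 2620. In bulk RNA, fewer cells with a transcript and less transcript per cell cannot be told apart.

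WT cells made mostly CA12 and CA2. Per length, as CPM per kilobase of merged exons, CA12 had a level of 28.2 ± 0.657 and CA2 of 12.5 ± 0.797 in WT cells of batch 2 (SD, n = 3 each), which was 66.0% ± 0.771 and 29.2% ± 0.945 of the summed level of the 10 genes. CA13 followed with 3.52% ± 0.215 and CA5B with 0.852% ± 0.0981. In batch 1 the shares were 69.4% ± 3.22 for CA12, 27.8% ± 3.45 for CA2 and 1.89% ± 0.541 for CA13. The remaining members had few reads: CA14 had 35 to 64 per library in WT cells of either batch, while CA3, CA8, CA9 and CA11 had at most 5. CA4 had no read in any of the 42 libraries. After the filter on low counts, 8 of the 10 members were tested in batch 1, all but CA4 and CA8, and 9 in batch 2, all but CA4.

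**Figure D1:**
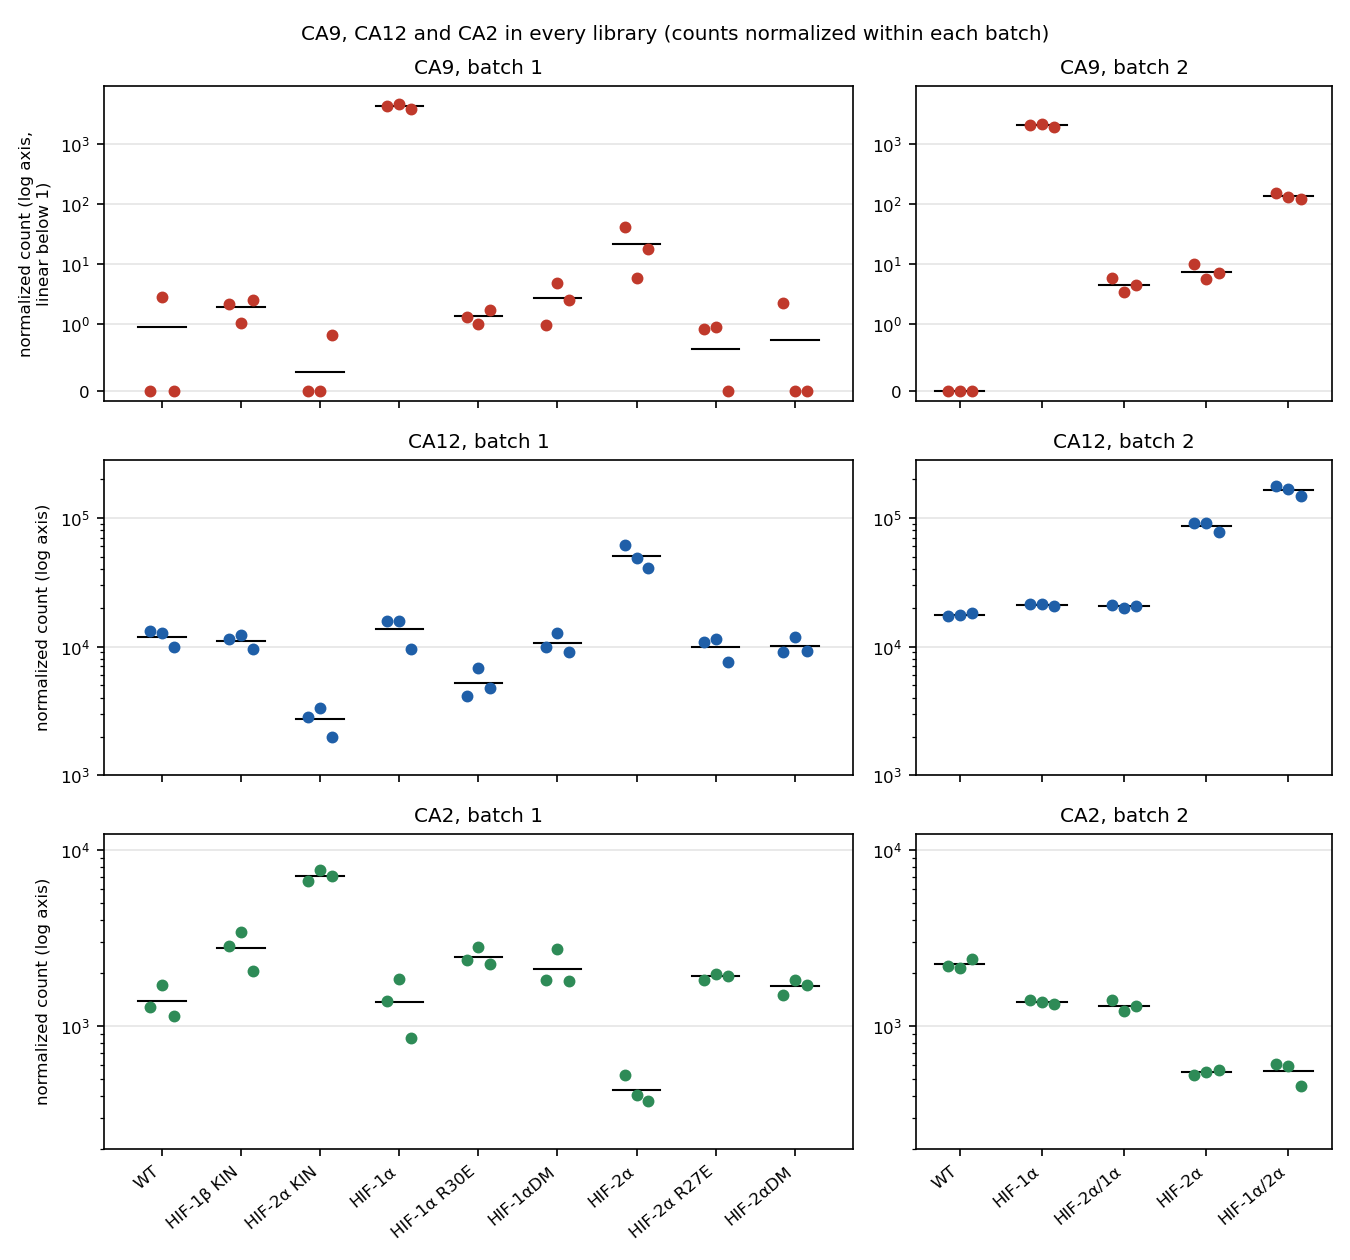
Normalized counts of CA9, CA12 and CA2 in every library of batch 1 (left) and batch 2 (right), on log axes (linear below 1 for CA9); points are libraries and bars are means of 3. CA9 is at most 5.91 outside the HIF-1α, HIF-2α and HIF-1α/2α lines, CA12 is highest and CA2 lowest in the HIF-1α/2α line and the line with active HIF-2α, not with HIF-2α R27E or HIF-2αDM, and HIF-2α KIN has the lowest CA12 and the highest CA2 of batch 1.

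CA9 was at the limit of detection in WT cells and rose most with HIF-1α. In batch 1 the WT libraries had 0, 3 and 0 reads, the HIF-1α libraries 4276, 4602 and 3872 normalized counts, and the HIF-2α libraries 41.1, 5.91 and 18.1. The 3 groups did not overlap. On counts, CA9 was 5140-fold higher with HIF-1α than in WT cells (95% counting interval 1760 to 24900) and 25.5-fold higher with HIF-2α (8.22 to 128). All reads of the WT group came from WT replicate 2, and without it the fitted log2 change moved from 12.12 to 15.05 for HIF-1α and from 4.49 to 7.42 for HIF-2α. Leaving out WT replicate 3 lowered them to 11.49 and 3.86, and leaving out HIF-2α replicate 1 lowered the latter to 3.74. Between the lines, the HIF-1α line had 201-fold more CA9 than the HIF-2α line (151 to 274). The log2 difference of HIF-2α from HIF-1α was -7.64 (SE 0.472, adjusted p = 2.61e-11), and -8.38 without HIF-2α replicate 1.

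The inactive forms and the KIN clones had few CA9 reads. HIF-1α R30E libraries had 1, 1 and 2 reads of CA9, HIF-1αDM libraries 1, 5 and 3, HIF-2α R27E libraries 1, 1 and 0, and HIF-2αDM libraries 2, 0 and 0. HIF-1β KIN libraries had 2, 1 and 3 reads and HIF-2α KIN libraries 0, 0 and 1. None of these groups was separate from WT cells. No fold against WT cells is given where both groups are this close to the limit. The HIF-1α line exceeded HIF-1α R30E in CA9 3060-fold (1190 to 11200) and HIF-1αDM 1510-fold (793 to 3290). Against the inactive forms of HIF-2α the ratio was 32.7 for R27E (8.57 to 278) and 33.9 for DM (8.89 to 288). All 4 of these differences passed the test, at adjusted p = 1.27e-12, 1.64e-12, 0.000147 and 0.000115. With only the groups compared in the fit, the adjusted p was 0.0236 for HIF-2α against R27E (2.31e-14 to 0.0236 over all alternatives) and 0.0157 for HIF-2α against WT cells (3.7e-15 to 0.0157), short of the threshold of 0.01 used here. Without HIF-2α replicate 1 the fitted log2 difference went from 4.81 to 4.07 against R27E and from 4.84 to 4.09 against HIF-2αDM. The latter was 7.43 without HIF-2αDM replicate 1, which held all of that group's reads, and 4.12 without its replicate 3. For HIF-1α against HIF-1αDM it went from 10.51 to 11.1 without HIF-1αDM replicate 2.

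Batch 2 gave the same order of the full-length isoforms and placed HIF-1α/2α between them. WT libraries had no CA9 read. HIF-1α libraries had 2095, 2112 and 1938 normalized counts, HIF-1α/2α libraries 151, 133 and 123, HIF-2α libraries 9.91, 5.77 and 7.04, and HIF-2α/1α libraries 5.91, 3.45 and 4.44. Only HIF-2α and HIF-2α/1α, next to each other in this order, overlapped. Against the floor of 3 counts per WT library, CA9 in the HIF-1α line was at least 738-fold higher, in HIF-1α/2α at least 48.9-fold, in HIF-2α at least 2.73-fold and in HIF-2α/1α at least 1.66-fold higher. It was called in all 4 lines, with adjusted p between 7.48e-33 and 0.00018, but with only the groups compared in the fit HIF-2α/1α missed the threshold (adjusted p = 0.0432; 8.11e-05 to 0.0432 over all alternatives).

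CA12 was raised by HIF-2α and hardly by HIF-1α. In batch 1 the WT libraries had 13247, 12633 and 10001 normalized counts, the HIF-2α libraries 61735, 49145 and 40566 and the HIF-1α libraries 15820, 15812 and 9573. HIF-2α libraries lay above all others, and HIF-1α and WT libraries overlapped. Relative to WT cells, CA12 rose by 2.08 on the log2 scale with HIF-2α (SE 0.243, adjusted p = 5.65e-07), which is 4.22-fold, and the HIF-1α line differed by 0.20 (SE 0.234, adjusted p = 0.727). In batch 2 WT libraries had 17320, 17601 and 18131, HIF-1α libraries 21292, 21346 and 20598, and HIF-2α libraries 91299, 91634 and 76987. None of these 3 groups overlapped. The smaller spread of this batch placed the HIF-1α difference past the adjusted p but well short of the fold limit of 2, at log2 0.25 (SE 0.0548, adjusted p = 0.000328), while HIF-2α gave 2.29 (SE 0.0572, adjusted p = 1.62e-32).

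CA12 fell in a pair of batch 1 lines without an active added HIF. HIF-2α KIN libraries had 2847, 3346 and 1969 normalized counts, below every library of the other groups, with a log2 change of -2.14 from WT cells (SE 0.244, adjusted p = 5.96e-07). HIF-1α R30E libraries had 4117, 6795 and 4723, also below every WT library, with -1.20 (SE 0.238, adjusted p = 0.00149). The second call depended on single libraries: without HIF-1α R30E replicate 1 the log2 change was -1.05, without its replicate 3 it was -1.13, and without WT replicate 1 it was -1.11, each at an adjusted p between 0.0123 and 0.0185 (4.44e-07 to 0.0185 over all alternatives). EPAS1 was at 6177 ± 497 normalized counts in HIF-2α KIN, at 10320 ± 2250 in HIF-1α R30E and at 10380 ± 2960 in HIF-1β KIN (SD, n = 3 each), against 14500 ± 2020 in WT cells; its part in the CA12 levels was not tested. HIF-1β KIN libraries had 11424, 12301 and 9648 normalized counts of CA12, HIF-1αDM libraries 9994, 12769 and 9124, HIF-2α R27E libraries 10917, 11529 and 7537, and HIF-2αDM libraries 9053, 11857 and 9260. These 4 groups overlapped with each other and with WT cells, and their log2 changes of -0.10 to -0.26 did not pass the test. In the order of the batch 1 levels, HIF-2α KIN, HIF-1α R30E and HIF-2α were each separate from their neighbours, and the 6 groups between the last pair overlapped from one to the next. HIF-2α exceeded R27E by 2.34 and HIF-2αDM by 2.33 on the log2 scale (SE 0.246 each), HIF-1α exceeded HIF-1α R30E by 1.40 (SE 0.239, adjusted p = 0.00038), and the difference of HIF-1α from HIF-1αDM was 0.37 (SE 0.234, adjusted p = 0.596).

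CA2 moved against CA12. In batch 2 its WT libraries had 2178, 2140 and 2405 normalized counts, HIF-1α libraries 1405, 1377 and 1332, HIF-2α/1α libraries 1408, 1216 and 1297, HIF-2α libraries 530, 548 and 563, and HIF-1α/2α libraries 611, 591 and 457. All 12 libraries with a transgene lay below all WT libraries, and the lines with the HIF-2α IDR lay below those with the HIF-1α IDR. CA2, the abundant cytosolic isozyme, was 4.09-fold lower with HIF-2α (log2 -2.03, SE 0.0928, adjusted p = 1.06e-22) and 4.04-fold lower with HIF-1α/2α. With HIF-1α and HIF-2α/1α the log2 changes were -0.71 (SE 0.0868) and -0.78 (SE 0.0872), past the adjusted p but short of the fold limit.

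In batch 1 CA2 was lowest with HIF-2α and highest in HIF-2α KIN. The WT libraries had 1282, 1716 and 1141 normalized counts, HIF-2α libraries 528, 406 and 375, and HIF-2α KIN libraries 6617, 7638 and 7037. Neither line overlapped with WT cells or with any other group. The log2 change was -1.66 with HIF-2α (SE 0.233, adjusted p = 8.85e-06) and 2.36 in HIF-2α KIN (SE 0.235, adjusted p = 6.29e-08). HIF-1β KIN libraries had 2839, 3422 and 2050, above all WT libraries, with a log2 change of 1.01 (SE 0.226, adjusted p = 0.00851). That call was lost without HIF-1β KIN replicate 1 (log2 0.99), its replicate 2 (0.84), WT replicate 1 (0.97) or WT replicate 3 (0.89), and with only the compared groups in the fit (1.03, adjusted p = 0.0281; 4.23e-05 to 0.0756 over all alternatives). HIF-1α libraries had 1390, 1844 and 856, a range that took in all WT libraries (log2 change -0.02, SE 0.224). Libraries of the inactive forms had 1504 to 2800 and log2 changes of 0.28 to 0.84 that did not pass the test. Directly compared, CA2 was lower with HIF-2α than with R27E by a log2 difference of -2.13 (SE 0.236) and than with HIF-2αDM by -1.95 (SE 0.235). HIF-1α against HIF-1α R30E gave -0.86 (adjusted p = 0.0256), which passed only without HIF-1α replicate 2 (-1.14, adjusted p = 0.00624; 0.000313 to 0.146 over all alternatives, the lower ones with a fold under 2).

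**Figure D2:**
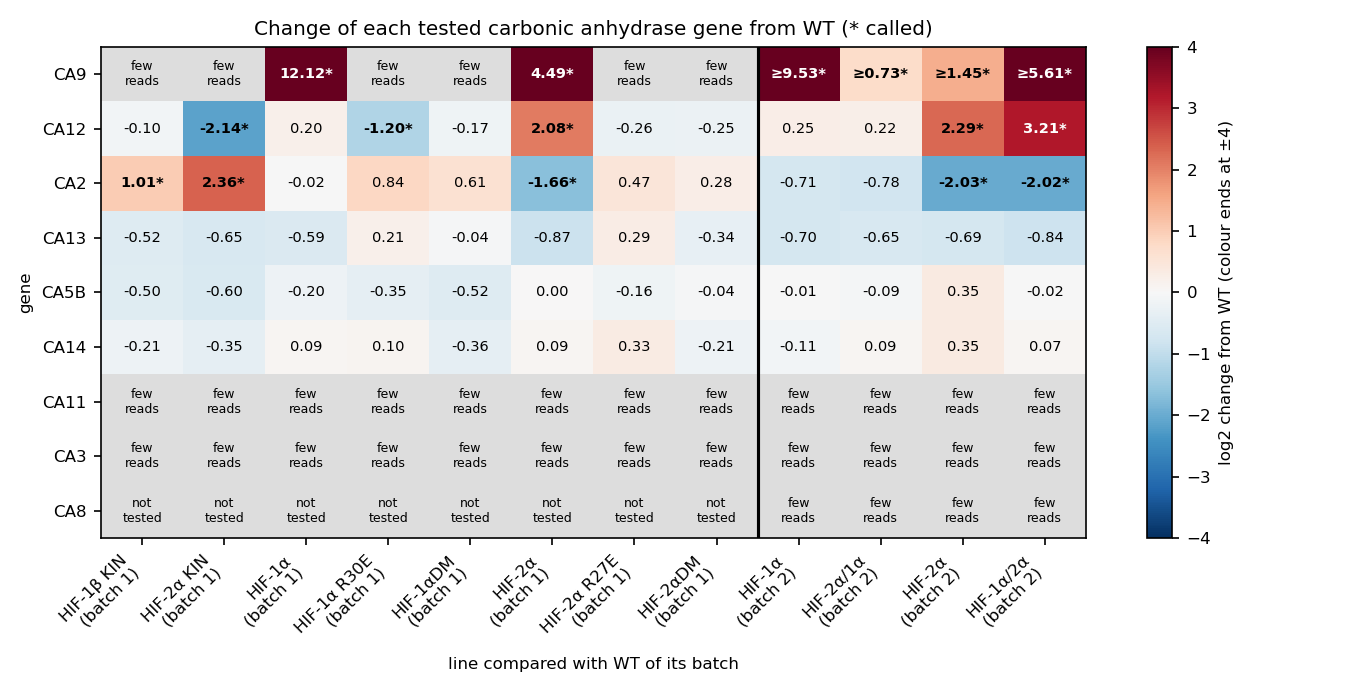
Log2 change from WT cells of the same batch for each tested member (rows) and line (columns), with * where the gene was called; batch 2 values of CA9 are lower bounds against 3 counts per WT library, and cells marked few reads had at most 25 reads in every library of both groups. CA9, CA12 and CA2 carry all of the calls, CA2 is blue where CA12 is red, and CA5B and CA14 stay between -0.60 and 0.35.

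The other isozymes moved little or could hardly be measured. CA13, a second cytosolic enzyme, ranged from 690 to 788 normalized counts in WT libraries of batch 2 and from 363 to 512 in the 12 libraries with a transgene, with no overlap. Its log2 changes there ran from -0.84 in HIF-1α/2α to -0.65 in HIF-2α/1α (SE 0.113 and 0.112), all past the adjusted p and short of the fold limit. In batch 1 it was called in 1 comparison, HIF-2α against R27E (log2 difference -1.16, SE 0.243, adjusted p = 0.00188). The adjusted p was 0.0196 there without R27E replicate 1, 0.0148 without HIF-2α replicate 3 and 0.0257 with only those groups in the fit (9.01e-05 to 0.0257 over all alternatives). CA5B had 22.2 to 103 normalized counts across batch 1 and 240 to 395 across batch 2. Its reads are uncertain, since the pseudogene CA5BP1, which overlaps it on the same strand and is a near copy, had 383.4 to 472.8 normalized counts per group in batch 1 and 505.6 to 603.1 in batch 2. CA14 ranged from 15.5 to 52.8 and from 42.2 to 85.3. Neither gene was called in any comparison. CA11 had 0 to 21 reads per library, CA3 0 to 8 and CA8 0 to 5. The highest mean of CA11 in batch 2 was 10.15 ± 5.54 with HIF-2α against 0.9246 ± 0.102 in WT cells (log2 change 3.29, SE 1.05, adjusted p = 0.0115), short of the threshold. By DESeq2 it was called there (adjusted p = 0.0098; 0.0098 to 0.0714 over all alternatives).

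Positions follow the GENCODE annotation of hg38. CA9 (ENSG00000107159.14) spans bases 35673928 to 35681159 of chromosome 9, where its start overlaps ARHGEF39 on the opposite strand, and reads were counted without regard to strand. CA12 (ENSG00000074410.14) spans 63321378 to 63381846 of chromosome 15 and overlaps no other annotated gene. CA2 spans 85463968 to 85481493 of chromosome 8, where its start overlaps the antisense RNA CA3-AS1. CA13, CA3 and CA8 lie on the same chromosome, CA14 on chromosome 1, CA4 on 17, CA11 on 19 and CA5B on X.

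Counts of members were read against the share of all genes called, at an adjusted p of at most 0.01 and a fold of at least 2. With 8 or 9 members tested, 1 called gene is the smallest share above 0. In batch 1, 1 of 8 members was called in HIF-1β KIN (1.38% of all 23410 tested genes), 2 in HIF-2α KIN (4.14%), 1 with HIF-1α (3.79%), 1 with HIF-1α R30E (2.61%) and 3 with HIF-2α (5.72%) against WT cells. Over all 8 comparisons with WT cells, the median log2 change of the tested members ran from -0.62 in HIF-2α KIN to 0.30 with HIF-1α R30E, against -0.088 to 0.003 for all genes. None was called with HIF-1αDM (0.457% of all genes), HIF-2α R27E (0.496%) or HIF-2αDM (0.474%), by edgeR or DESeq2; at an unadjusted p under 0.05 CA2 alone passed with the former pair and none with HIF-2αDM. Between lines, 2 members were called for HIF-1α against R30E (1.75%), 1 against HIF-1αDM (1.37%), 4 for HIF-2α against R27E (3.63%), 3 against HIF-2αDM (3.96%) and 3 for HIF-2α against HIF-1α (2.4%). In batch 2, of 9 members tested, 1 was called in the HIF-1α line (4.39% of all 28724 tested genes), 3 in HIF-2α (7.58%), 1 in HIF-2α/1α (3.49%), 3 in HIF-1α/2α (7.78%) and 3 between HIF-2α and HIF-1α (3.78%). Across these batch 2 comparisons the median log2 change of the tested members ran from -0.11 with HIF-1α to 0.94 with HIF-1α/2α, against 0 to 0.077 for all genes, and was the same with CA9 at its lower bound. In HIF-2α and HIF-1α/2α this median rests on CA3, CA8 and CA11, which had at most 14 reads in any library of these lines. CA2 and CA13, with far more reads, were lower there than in WT cells, so the median does not describe a rise of the family. Comparisons with WT cells share the same control libraries within a batch.

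Swapping the parts of the protein separated CA9 from CA12. In the 4 lines of batch 2, the IDR effect is the average log2 level where the IDR is that of HIF-2α, less the average where it is that of HIF-1α, and the structured-part effect is defined likewise. For CA12 the IDR effect was 2.52 on the log2 scale (SE 0.0408, adjusted p = 1.05e-39), while the structured part gave -0.48 (SE 0.0387), short of the fold limit. For CA9 the structured part gave -6.46 (SE 0.152, adjusted p = 7.24e-31), less with the HIF-2α structured part, and the IDR -1.57 (SE 0.274, adjusted p = 8.73e-06). These SEs were derived from the F-test of edgeR. CA9 had only 13 reads in all in HIF-2α/1α and 21 in HIF-2α, so the SE of -6.46 understates its counting error. CA2 followed the IDR, with -1.28 (SE 0.0654), and gave -0.04 (SE 0.065, adjusted p = 0.74) for the structured part. Of the 9 members 3 were called for the IDR (4.41% of all genes) and 1 for the structured part (1.04%), with median log2 effects of 0.22 and 0.10 against 0.017 and -0.006 for all genes.

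**Figure D3:**
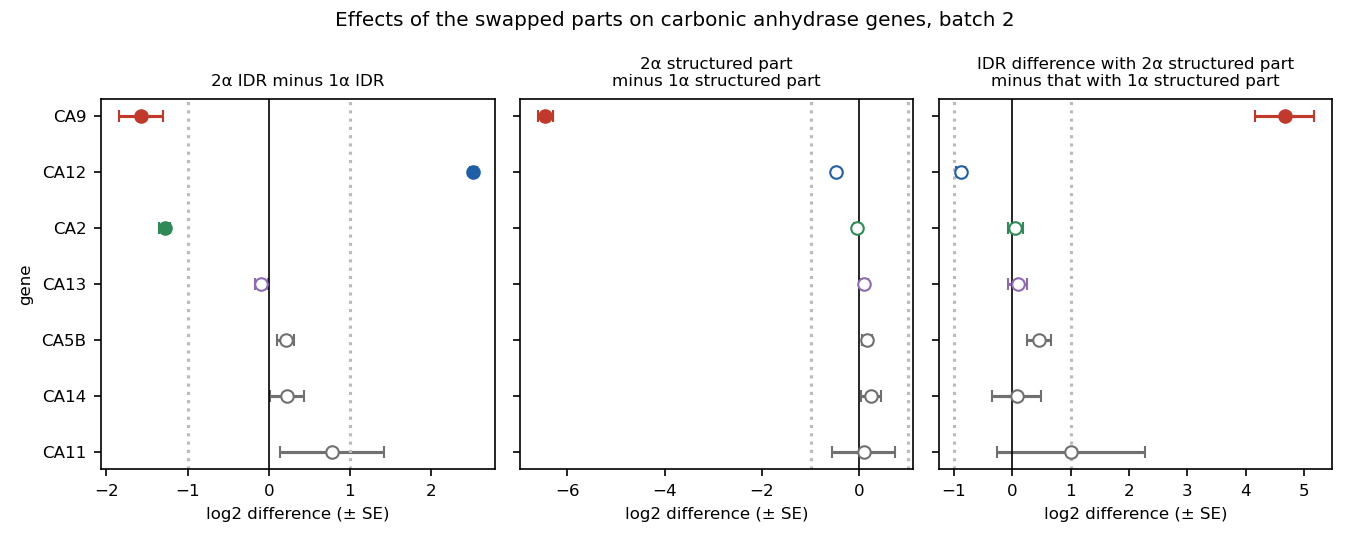
Effect of the swapped IDR (left), of the swapped structured part (middle) and the interaction (right) in batch 2, as log2 differences. Bars are SEs derived from the F-test of edgeR, which can fall below the counting error for CA9. The tested members except CA3 and CA8 are drawn. CA11 had at most 14 reads per library, and CA9 had 4 to 5 in HIF-2α/1α and 5 to 10 in HIF-2α. Filled points were called and dotted lines mark a fold of 2. CA12, CA9 and CA2 lie off 0 for the IDR, CA12 upwards and the others downwards, and CA9 lies farthest off 0 for the structured part and in the interaction.

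Single swaps gave the levels behind these averages. CA12 libraries with HIF-2α/1α had 20936, 20005 and 20645 normalized counts, overlapping with HIF-1α, and those with HIF-1α/2α had 175357, 167261 and 148730, above all others. Putting the HIF-2α IDR in place of the HIF-1α IDR changed CA12 by 2.96 on the log2 scale with the HIF-1α structured part (SE 0.0587) and by 2.08 with the HIF-2α structured part (SE 0.0568). HIF-1α/2α thus exceeded full-length HIF-2α, by 0.92 (SE 0.0548), a 1.89-fold difference short of the fold limit. For CA9 the same exchange went down with the HIF-1α structured part, 14.9-fold (13.5 to 16.5; log2 -3.91, SE 0.129), and was not resolved with the HIF-2α structured part, where HIF-2α against HIF-2α/1α gave a ratio of 1.72 (0.823 to 3.74). Exchanging the structured part changed CA9 458-fold with the HIF-1α IDR (268 to 860, HIF-1α over HIF-2α/1α) and 17.8-fold with the HIF-2α IDR (11.5 to 29.1, HIF-1α/2α over HIF-2α). CA2 changed with the IDR by -1.31 and -1.25 on the log2 scale, with the HIF-1α and the HIF-2α structured part, while HIF-2α/1α differed from HIF-1α by -0.07 and HIF-1α/2α from HIF-2α by 0.02, neither past the test. Members called were 1 for HIF-2α/1α against HIF-1α (0.543% of all genes), 3 for HIF-1α/2α against HIF-1α (4.65%), 2 for HIF-2α against HIF-2α/1α (3.19%) and 1 for HIF-1α/2α against HIF-2α (2.09%). EPAS1 and HIF1A reads differed among these lines. They were at 51430 ± 3090 and 9734 ± 623 normalized counts in HIF-1α/2α against 42540 ± 320 and 935.5 ± 144 in HIF-2α (SD, n = 3 each). Their part in the differences of CA12, CA9 and CA2 between these lines was not tested.

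The test of the interaction asked whether the IDR difference depended on the structured part. Its median over the members was 0.08, against 0.013 for all genes. It was called for CA9 (log2 4.67, SE 0.503, adjusted p = 4.58e-09), 1 of 9 members against 1.18% of all genes. CA12 gave -0.88 (SE 0.0773, adjusted p = 1.55e-11), short of the fold limit, and CA2 gave 0.05 (SE 0.13, adjusted p = 0.886).

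**Figure D4:**
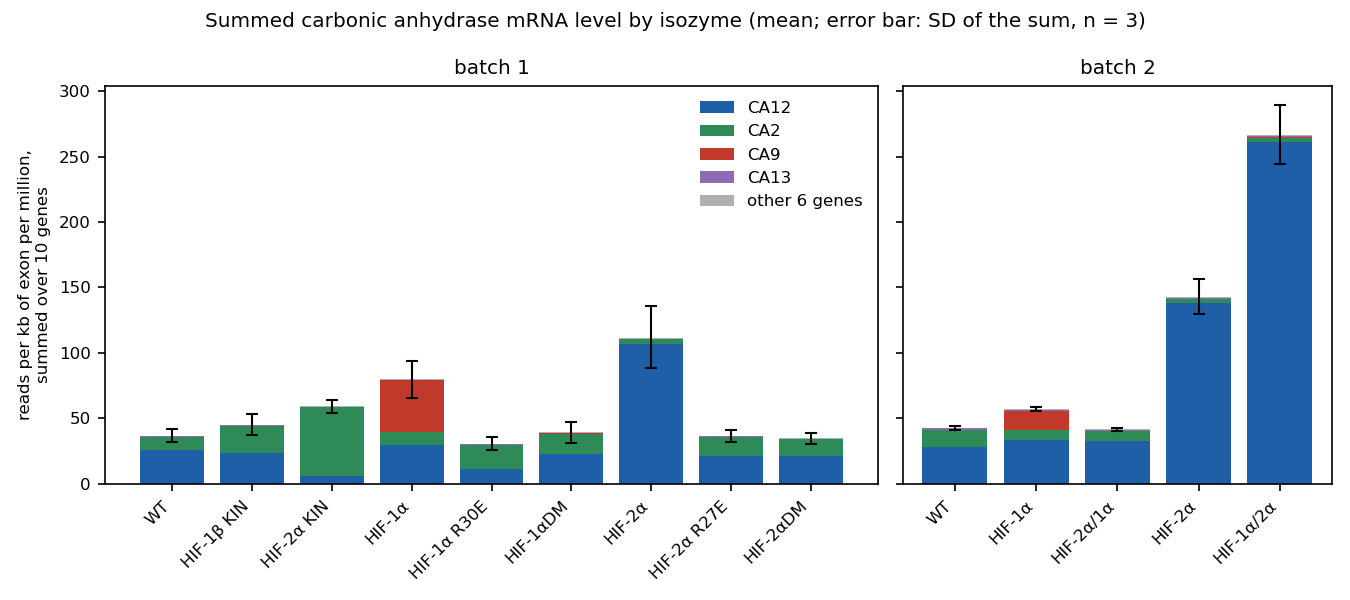
Summed level of the 10 genes per length (CPM per kilobase of merged exons), split by gene, as means of 3 libraries with the SD of the sum as error bar; batches are not comparable in level. The CA9 block is visible with HIF-1α, and the CA12 block makes up nearly the whole of the bars for HIF-1α/2α and HIF-2α.

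These changes altered which isozyme held most of the family's mRNA per length. With HIF-1α, CA9 took 50.3% ± 5.63 of the sum in batch 1 and 25.1% ± 0.51 in batch 2 (SD, n = 3 each), and CA12 36.3% ± 3.88 and 58.9% ± 0.453. With HIF-2α, CA12 took 96.2% ± 0.285 and 96.6% ± 0.379, and with HIF-1α/2α 98.0% ± 0.102. HIF-2α KIN was the reverse, with 89.2% ± 2.03 for CA2 and 9.75% ± 2.09 for CA12. In HIF-1α R30E, CA2 held 60.5% ± 3.98, while in HIF-1αDM, HIF-2α R27E and HIF-2αDM CA12 held 57.7% to 61.6%. The summed level in batch 2 was 42.8 ± 1.44 CPM per kilobase in WT cells, 41.6 ± 1.27 in HIF-2α/1α and 57.1 ± 1.55 in HIF-1α, and it reached 143 ± 13.3 in the HIF-2α line and 267 ± 22.5 in HIF-1α/2α.

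The responses to HIF-1α and HIF-2α were compared between batches in a joint fit, since RNA extraction and library kits differed. The median difference over the members was -0.31 for HIF-1α and 0.09 for HIF-2α, against -0.099 and -0.048 for all genes. No member was called for HIF-1α (0.00374% of all 26763 tested genes) or HIF-2α (0% of all genes), by edgeR or DESeq2, and at an unadjusted p under 0.05 CA2 alone passed, for HIF-1α. Over all genes, edgeR called 1 and 0, DESeq2 called 1 and 43, and 1453 and 2855 had an unadjusted p under 0.05. Between batches the CA12 response differed by -0.11 for HIF-1α and 0.07 for HIF-2α on the log2 scale (SE 0.237 each). The CA2 response to HIF-1α, near 0 in batch 1, differed by -0.85 (SE 0.27, adjusted p = 0.897). For CA9 the differences of 1.40 (SE 1.28) and 1.04 (SE 1.07) rest on the few WT reads and turned to -1.89 and -2.26 without WT replicate 2 of batch 1.

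Genes with a pattern most like CA9 and CA12 were sought among 12462 genes with a mean of at least 50 normalized counts in both batches. Likeness was the smaller of the Pearson correlations of log2 CPM over the 27 libraries of batch 1 and the 15 of batch 2. Libraries of a line share their transgene, so these values describe differences among lines. For CA9 the closest were PFKFB4, which sets the level of a glycolysis activator (r = 0.947 and 0.938), GBE1, the glycogen branching enzyme (0.906 and 0.908), ARL10 (0.871 and 0.949), PDK1, an inhibitor of pyruvate dehydrogenase (0.905 and 0.87), and MUC1, a membrane mucin (0.853 and 0.856). For CA12 they were ACKR3, a scavenging chemokine receptor (0.971 and 0.937), VEGFA, the angiogenic growth factor (0.916 and 0.961), FRMD4A (0.915 and 0.951), SMIM3 (0.918 and 0.913) and PTHLH, parathyroid hormone-related protein (0.911 and 0.95). With Spearman in place of Pearson correlations, 0 of these 5 genes were kept for CA9 and 2 of 5 for CA12, so the lists depend on the measure. The genes were chosen over the batch 2 libraries too, so their swap effects are a description. For the 5 genes of CA9 the structured part gave log2 effects of -2.39 (ARL10) to -0.94 (PDK1) and the IDR -0.86 (PDK1) to 0.24 (MUC1), about the same size for both in PDK1. For those of CA12 the IDR gave 0.83 (SMIM3) to 3.80 (ACKR3) and the structured part -0.35 (VEGFA) to 0.43 (PTHLH). With HIF-1α in batch 2 the log2 change of ACKR3 was 1.21, where that of CA12 was 0.25.

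Other genes that handle bicarbonate and protons were mostly not called. Of the other carbonic anhydrase genes CA1, CA5A, CA6, CA7 and CA10, CA6 and CA7 were tested in batch 1, at 0 to 14 reads per library, and these and CA1 in batch 2. CA1 was called higher in batch 2 in HIF-1α/2α, HIF-2α and HIF-2α/1α (log2 changes 3.87, 4.87 and 5.10) at 0 to 50 reads per library. Its HIF-1α/2α libraries had 0, 2 and 28 reads, so that value rests on 1 library, and CA1 overlaps CA3. Of 10 SLC4A bicarbonate transporters 9 were tested in batch 1 and all in batch 2. SLC4A8, a sodium-driven bicarbonate exchanger, was higher than in WT cells in all 8 other groups of batch 1, the inactive forms and KIN clones included, with log2 changes of 1.40 to 4.36. In batch 2 it was 51.84 ± 8.27 normalized counts in WT cells and 325.5 to 767.3 in the lines (SD, n = 3), with log2 changes of 2.66 to 3.89. SLC4A10, a related exchanger, fell in 3 of the 4 lines of batch 2, with log2 changes of -5.22 in HIF-1α/2α, -4.18 in HIF-2α and -1.97 in HIF-1α, from 55.19 ± 15.1 normalized counts in WT cells. Of 9 SLC9A sodium-proton exchangers, SLC9A3 alone was called against WT cells in batch 2, higher with HIF-2α (log2 1.27, SE 0.29). In batch 1, HIF-2α KIN had 0, 0 and 1 reads of SLC9A9 against 19, 23 and 25 in WT cells, and no read of SLC9A2 against 4, 9 and 9, and both were called lower. SLC9A2 was also called lower with HIF-2α, at 1, 0 and 0 reads, than with HIF-2αDM, at 13, 20 and 42. In batch 2 SLC9A2 was lower for the HIF-2α IDR (log2 -2.30, SE 0.505) and in HIF-1α/2α and HIF-2α than in HIF-1α, at 1 to 25 reads per library of these lines.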

How the data were processed

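Poly-A RNA-seq was read from 42 libraries in 14 groups of 3. Each library's group came from its label, and batches were fitted separately except where they were compared. The authors deposited raw counts per gene: reads were aligned to hg38 with STAR, kept where they mapped once, and assigned by HTSeq to GENCODE genes (union mode, strand ignored), so overlapping genes and near copies are uncertain. STAR 2.7 and HTSeq 0.11.1 are named in the submitters' processing notes. The authors' tests used DESeq2.

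Counts were tested in R 4.3.3 with edgeR 4.0.16 (quasi-likelihood, TMM, all groups of a batch in 1 fit, Benjamini-Hochberg over all tested genes). The filter required 0.5 normalized counts on average over a batch, and a gene was called at an adjusted p of at most 0.01 and a fold of at least 2. The SE of a log2 change is its size divided by the square root of the edgeR F statistic. It restates the test and can fall below the counting error where reads are few, as for CA9. DESeq2 1.42.0 was an alternative. Normalized counts are counts scaled to the mean effective library size of the batch. CA9 ratios carry 95% exact binomial intervals, and the floor is 3 counts; both cover counting error only. Depths, 42377599 to 109642159 reads, are in the text. Figures were drawn with matplotlib.

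The members, the lists and the tests were chosen with earlier results of these data known. The single swaps of batch 2 were added after the values were seen. All 10 members are named; CA9 and CA12, and CA2 as a called member with a group mean of at least 50, are given by library. Genes most like CA9 and CA12 are the top 5. Other lists were CA1 and relatives, SLC4A, SLC9A and cell type markers.

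Replicates share numbers across groups. The deviations of same-numbered libraries from their group means correlated above 0.1 in every pair for 7 comparisons of batch 1, and not for the others. Averaged over the pairs of a comparison, the correlation was 0.134 to 0.323 throughout batch 1 and -0.00558 to 0.0201 in batch 2. Same-numbered libraries of batch 1 thus shared some of their variation. The main SE and p-values come from fits without replicate number, so no pairing enters them. A replicate block was fitted for every comparison as an alternative. P-values measure the spread between libraries described as biological replicates. Whether the cultures of a number shared a day was not given in the sources used here.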

Additional observations from a re-analysis of the deposited data

Results flagged for a closer look

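The IDR difference depended on the structured part for CA9 and CA12, by the adjusted p of the interaction test in batch 2. Of these, CA9 alone also passed the fold limit of 2. For CA9 the interaction was 4.67 on the log2 scale (SE 0.503, adjusted p = 4.58e-09 from edgeR): with the HIF-1α structured part the HIF-2α IDR gave less CA9 in 3 of 3 libraries, and with the HIF-2α structured part the libraries overlapped. For CA12 it was -0.88 (SE 0.0773, adjusted p = 1.55e-11): the HIF-2α IDR raised CA12 with either structured part, and more with that of HIF-1α. Groups of 3 libraries were too small for a test of single outlying libraries.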

How the results depend on the processing

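Of the counts of called members, 150 stayed within 1.5 times and 12 did not under other tools, scalings, filters, fits and thresholds; 185 did and 7 did not with 1 library left out. The replicate block, fitted for every comparison, left each count of called members as it was (1 in HIF-1β KIN, 2 in HIF-2α KIN, 3 with HIF-2α). With an adjusted p of at most 0.05 and no fold limit the count became 2 for HIF-1α R30E, 5 for HIF-2α in batch 1, 4 for HIF-1α, 4 for HIF-2α/1α, 5 for HIF-2α and 5 for HIF-1α/2α in batch 2, 2 for HIF-1α/2α against HIF-2α, 2 for the structured part and 2 for the interaction. With only the groups compared in the fit it became 0 for HIF-1β KIN, 0 for HIF-2α/1α and 2 for HIF-2α against R27E; fewer libraries then estimate the spread. Leaving out 1 library gave 0 to 1 for HIF-1β KIN and for HIF-1α R30E. With the longest transcript as length, the CA12 share in WT cells of batch 2 was 63.0%. The CA9 share with HIF-1α was then 46.9% in batch 1 and 22.6% in batch 2. These shifts were larger than the SD over libraries in batch 2 and smaller in batch 1.

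Signs turned only for differences that were not called. CA2 with HIF-1α in batch 1 was 0.03 by DESeq2, 0.03 by RLE and 0.01 with only its groups, and -0.30 to 0.23 with a library left out. The latter range was -0.07 to 0.14 for CA2 between HIF-1α/2α and HIF-2α, -0.07 to 0.14 for its interaction and -0.13 to 0.06 for CA13 with HIF-1αDM. Between batches CA12 gave 0.01 for HIF-1α without the filter, -0.32 to 0.02 with a library left out and -0.06 to 0.24 for HIF-2α, and CA9 gave -1.89 to 2.07 and -2.26 to 1.79. By DESeq2 CA11 was called with HIF-2α in batch 2 (log2 3.46). With Spearman in place of Pearson, 0 of the 5 genes most like CA9 and 2 of the 5 most like CA12 were kept. Depth limits CA3, CA4, CA8 and CA11 and the folds of CA9 against WT cells. The cause of these changes was not tested.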
